A study of Homo sapiens with 6 samples.

Results

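GDF15, EGR1 and NDRG1 to NDRG4 were followed by total RNA sequencing in the human gastric adenocarcinoma cell line AGS, with and without indomethacin, which blocks cyclooxygenases and belongs to the non-steroidal anti-inflammatory drugs (NSAIDs). The 6 genes are GDF15 (also called NSAID-activated gene), a transcription factor reported to act on it, and the NDRG family. They were chosen by name with earlier results of these data known, and are 6 of the 60604 genes read from the deposited tables. The control group was 3 libraries labelled as given no indomethacin, and the treated group was 3 libraries of cells given 0.5 mM for 24 h. All were AGS cells grown in serum-containing medium, with no genetic change named in the labels, and the labels give no time for the controls. Nothing in the labels says whether libraries of 1 group were grown as separate cultures, and the spread behind each p-value may therefore be technical.

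GDF15 is a distant member of the TGF-beta superfamily. It is made as a precursor, cut by furin-type convertases and secreted, and its receptor is GFRAL, which signals with RET and is known from the hindbrain. Its gene is known to be switched on by the stress factors ATF4 and CHOP and, in cells given NSAIDs, by EGR1. EGR1 is a zinc finger transcription factor of the immediate early response, itself driven by serum response factor with ELK partners and held back by the corepressors NAB1 and NAB2. The NDRG proteins have the fold of alpha/beta hydrolases without a known enzymatic activity. NDRG1 is known to be induced by hypoxia and cell stress, repressed by MYC and MYCN, and phosphorylated by SGK1 and GSK3.

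The libraries held 17535435 to 23221077 counts, and levels are given as counts per 1000000 (CPM) after TMM scaling. The floor that 0 counts leave, taken as 3 counts, was 0.129 to 0.171 CPM depending on the library, and it covers counting error only. Mitochondrially encoded genes took 22.8% to 26.8% of counts in control and 16.7% to 19.7% in indomethacin libraries. The epithelial markers EPCAM, KRT8, KRT18 and KRT19 summed to 3139 to 3624 CPM in control and 2575 to 2870 CPM in indomethacin libraries. The 3 endothelial markers summed to at most 0.522 CPM and the 5 fibroblast markers to at most 11.3 CPM in any library. Of the 5 immune markers, LYZ, the lysozyme gene that gastric epithelium also expresses, had 1099 ± 435 CPM in control and 121 ± 3.83 CPM in indomethacin libraries (SD, n = 3), and the other 4 were each under 0.250 CPM in either group's mean.

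Of the 6 genes, GDF15, EGR1 and NDRG1 rose with indomethacin, NDRG2 and NDRG3 fell, and NDRG4 did not pass the test. A gene was called where edgeR's quasi-likelihood test gave a Benjamini-Hochberg adjusted p under 0.05 over all 17200 genes tested, and all 6 were tested. These 5 calls out of 6 stand against a background in which 61.6% of all genes tested were called, 30.6% higher and 31.0% lower. The indomethacin and control libraries did not overlap in any of the 6 genes, nor in 67.0% of all genes tested. The members are therefore described by the size of their changes, though they were chosen with earlier results of these data known. NDRG1 had the 48th highest log2 fold change of the 17200 genes, GDF15 the 133rd and EGR1 the 2438th. NDRG2 had the 306th lowest and NDRG3 the 1958th. Levels are shares of a library's counts, so fewer cells with a transcript and less transcript per cell cannot be told apart.

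**Figure D1:**
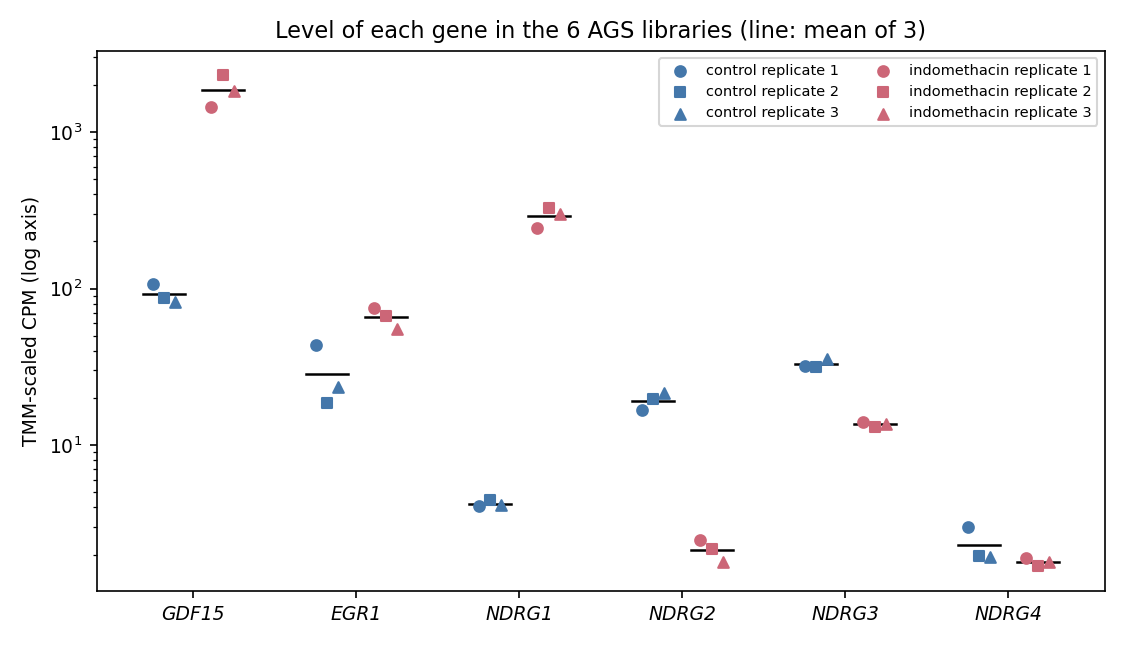
Level of the 6 genes in each of the 6 libraries, as TMM-scaled CPM on a log axis; points are libraries, marker shapes are replicate numbers and lines are means of 3. The indomethacin points of NDRG1 lie at 245 to 328 CPM against 4.06 to 4.47 CPM in control, and those of NDRG4 lie close under the lower control points.

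GDF15 (ENSG00000130513) lies on the plus strand of chromosome 19 from 18374731 to 18389176 on build hg38, with 5 merged exons. It stood at 107, 87.4 and 82.6 CPM in the control libraries and at 1451, 2305 and 1816 CPM in the indomethacin libraries. Every indomethacin library was far above every control, and indomethacin replicate 2 was the highest. The means were 92.3 ± 12.8 and 1858 ± 429 CPM (SD, n = 3), a 20.1-fold rise (log2 fold change 4.33, SE 0.18, 95% interval 3.94 to 4.73; edgeR adjusted p = 5.0e-10). Per length, GDF15 was already at 44.2 ± 6.11 CPM per kb of exon in control, above 96.0% of the genes tested. With indomethacin it reached 890 ± 205 CPM per kb, the 40th highest level per length of all genes tested, against the 692nd in control.

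The deposited tables also count MIR3189 (ENSG00000264175), a microRNA hairpin gene that lies within GDF15 on the same strand and shares no exonic base with it. Its counts were 64, 35 and 42 in the control and 324, 328 and 262 in the indomethacin libraries. The groups did not overlap, and the level rose from 2.20 ± 0.845 to 15.8 ± 0.458 CPM, or 7.19-fold (edgeR adjusted p = 1.1e-07, with a log2 fold change of 2.85 and its SE of 0.22). Hairpin transcripts and reads from the unspliced GDF15 transcript cannot be told apart in these counts. The 95% interval of the log2 change, 2.37 to 3.33, lies below that of GDF15, and the difference between the genes was not tested. MIR3189 was singled out after its values were seen.

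The stretch before the RefSeq start of GDF15 is shown because it is a sequence on which EGR1 and other factors would be looked for. It is the 250 bases before the RefSeq start, chr19:18385908-18386157 on GRCh38.p14, plus strand, read 5′ to 3′. Capitals mark, in order, CCGCCC and GGGCGG, which are the GC box bound by SP family factors on the minus and the plus strand, and the TATA box TATAAA.
GDF15: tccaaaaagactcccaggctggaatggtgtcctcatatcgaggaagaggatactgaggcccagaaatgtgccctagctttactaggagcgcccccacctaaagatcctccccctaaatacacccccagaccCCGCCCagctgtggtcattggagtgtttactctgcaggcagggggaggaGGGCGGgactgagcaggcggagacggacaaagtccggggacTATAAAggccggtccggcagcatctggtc
Counting back from the start, the GC boxes begin at -119 and -70 and the TATA box at -29. The EGR site GCGNGGGCG, searched on both strands, is not among these letters, nor are the C/EBP-ATF composite TGATGNAA or the CArG box of serum response factor. GENCODE 29 lists 5 starts for GDF15, and the window shown, which lies inside the gene interval given above, was the only one searched. Of 35116 windows of the same length before RefSeq starts, 42.6% hold a GC box, 10.7% a TATA box, 8.41% an EGR site, 3.14% the composite and 1.2% a CArG box. An EGR site and a GC box can overlap. Only exact matches to the letters of each site were searched, so a sequence bound by EGR1 in another form would be missed.

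The transcription factors known to act on GDF15 mostly rose with it. This list was drawn up with earlier results of these data known. Of the 16 on the list, all tested, 12 (75.0%) rose and 4 (25%) fell, against 30.6% and 31.0% of all genes tested, with a median log2 fold change of 0.82 against 0.04 for all genes tested. DDIT3, which encodes CHOP, went from 14.3 ± 3.36 to 173 ± 37.5 CPM, a log2 fold change of 3.60 (SE 0.20), and KLF4 from 9.38 ± 2.32 to 76.3 ± 5.09 CPM (3.02, SE 0.16). CEBPB, a partner of CHOP and ATF4, went from 18.3 ± 4.64 to 78.8 ± 15.0 CPM, and XBP1 of the unfolded protein response from 164 ± 10.5 to 376 ± 8.11 CPM. SP3 (-0.65), HIF1A (-0.46), NFKB1 (-0.50) and TFEB (-0.51) fell, and these are named after their values were seen. Exons of DDIT3 overlap those of other genes on both strands, so its value is uncertain, and whether the authors counted by strand is not given in the sources used here.

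Genes for the processing of the GDF15 precursor fell or did not pass. The convertase genes FURIN (log2 fold change -0.60), PCSK5 (-0.61) and PCSK6 (-1.11) fell, as did MMP14 (-0.66), a membrane protease of the matrix, so that 4 of the 5 tested members of this list fell and none rose (median -0.61), where 31.0% of all genes tested fell. FURIN, the best known of these convertases, stood at 92.8 ± 19.2 CPM in control and 61.2 ± 7.85 CPM in indomethacin libraries. PCSK7, the remaining tested member, did not pass (edgeR adjusted p = 0.62, log2 fold change 0.07). The receptor gene GFRAL had 0 counts in the 6 libraries and RET had 1 and 4 counts over the control and the indomethacin libraries, so both were at or under the floor in each library.

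Among the ligands of the TGF-beta superfamily GDF15 had the highest level per length in both groups. Of 32 other ligand genes, 11 had enough counts to be tested, of which 5 (45.5%) rose and 3 (27.3%) fell, against 30.6% and 31.0% of all genes tested (median log2 fold change 0.33). In control libraries the highest of the 32 per length were BMP4 (9.0 ± 0.473 CPM per kb) and TGFB1 (4.69 ± 1.08), against 44.2 ± 6.11 for GDF15. With indomethacin the highest was TGFB1 at 9.79 ± 1.75 CPM per kb, against 890 ± 205 for GDF15. BMP4 fell from 27.9 ± 1.46 to 3.36 ± 0.247 CPM (edgeR adjusted p = 1.1e-09, with a log2 fold change of -3.05 and its SE of 0.14) and TGFB3 from 4.12 ± 0.697 to 0.696 ± 0.508 CPM. TGFB1 rose from 15.3 ± 3.54 to 32.0 ± 5.72 CPM and BMP8A, at a low level, from 0.354 ± 0.0806 to 1.27 ± 0.153 CPM.

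EGR1 (ENSG00000120738) lies on the plus strand of chromosome 5 from 138465479 to 138469303, with 2 exons. Its control libraries stood at 43.5, 18.5 and 23.5 CPM and its indomethacin libraries at 75.0, 67.1 and 55.0 CPM. The groups did not overlap, and control replicate 1 lay nearer to the lowest indomethacin library than to the other controls. The means were 28.5 ± 13.2 and 65.7 ± 10.1 CPM (SD, n = 3), a 2.30-fold rise (log2 fold change 1.21, SE 0.24, 95% interval 0.70 to 1.71; edgeR adjusted p = 0.00052). Without control replicate 1 the log2 fold change was 1.59, and without control replicate 2 it was 0.94. The coefficient of variation of EGR1 in control, 46.3%, was the largest of the 6 genes in either group.

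Other genes of the early response were high in the same control library. SRF stood at 40.5 CPM in control replicate 1 and at 19.4 and 23.6 CPM in the other controls, ATF3 at 32.5 against 13.9 and 10.9 CPM, and EGR2 at 4.40 against 0.936 and 1.5 CPM. The part of this library's early response genes in the EGR1 result was not tested beyond the value without it. These 3 genes were picked after their values were seen.

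The 250 bases before the start of EGR1 are shown because this stretch is known to carry the elements through which serum response factor drives the gene. They are chr5:138465229-138465478 on GRCh38.p14, plus strand, read 5′ to 3′, and capitals mark an EGR site followed by a pair of CArG boxes, the binding element of serum response factor.
EGR1: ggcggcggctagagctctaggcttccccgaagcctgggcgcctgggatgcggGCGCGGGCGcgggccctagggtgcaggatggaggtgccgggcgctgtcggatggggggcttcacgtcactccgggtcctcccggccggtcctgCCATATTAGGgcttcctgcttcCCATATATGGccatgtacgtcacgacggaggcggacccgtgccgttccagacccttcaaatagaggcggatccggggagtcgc
The EGR site GCGCGGGCG begins at -198 and the CArG boxes CCATATTAGG and CCATATATGG at -105 and -83. TGACG, the core of the cyclic AMP response element, is present on the minus strand as CGTCA at -135 and -66, and 21.2% of the windows hold it on either strand. A match is a run of letters, and no binding was measured here.

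Of the factors around EGR1, the corepressors rose. NAB2, which EGR1 is known to induce, went from 22.5 ± 0.817 to 51.8 ± 8.26 CPM (edgeR adjusted p = 2.2e-06), and its 22.2 to 23.5 CPM in control replicates 3 and 2 differed little from the 21.9 CPM in control replicate 1. NAB1 rose from 27.0 ± 2.23 to 43.1 ± 7.52 CPM, and the SRF coactivator MRTFA from 21.3 ± 1.92 to 37.1 ± 1.93 CPM. The SRF partner ELK3 fell from 23.4 ± 3.16 to 8.35 ± 2.56 CPM (log2 fold change -1.48). Of the 13 genes on this list 10 were tested, and 6 rose and 1 fell (median log2 fold change 0.34), beside a background of 30.6% higher and 31.0% lower. Without control replicate 1 the number that rose was 3 of these 10, with ELK1, ELK4 and MRTFB lost. That is near the share in the same fit, in which 4909 of 18157 genes tested were higher. Of the other EGR genes, EGR2 had 2.28 ± 1.86 and 2.30 ± 0.727 CPM (edgeR adjusted p = 0.96), EGR3 had 2 and 6 counts over the groups, and EGR4 had none.

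Genes known as targets of EGR1 rose and fell in shares not far from those of all genes. Of 17 on the list 14 were tested, of which 6 (42.9%) rose, 4 (28.6%) fell and 4 did not pass, where 30.6% of all genes tested rose and 31.0% fell (median log2 fold change 0.13). The urokinase receptor gene PLAUR rose from 19.8 ± 2.63 to 128 ± 13.8 CPM, a log2 fold change of 2.70 (SE 0.13), and VEGFA, the vascular growth factor, from 162 ± 21.9 to 747 ± 92.9 CPM (2.20, SE 0.14). The matrix glycoprotein gene THBS1 fell from 75.3 ± 27.4 to 9.10 ± 1.60 CPM (-3.05, SE 0.22), and the heparanase gene HPSE from 8.72 ± 0.336 to 1.82 ± 0.471 CPM (-2.28, SE 0.22). THBS1 was highest in control replicate 1, at 107 CPM against 59.4 and 59.5 CPM in the other controls. Each of these 4 genes passed edgeR's test, with adjusted p from 1.2e-09 to 7.9e-07.

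**Figure D2:**
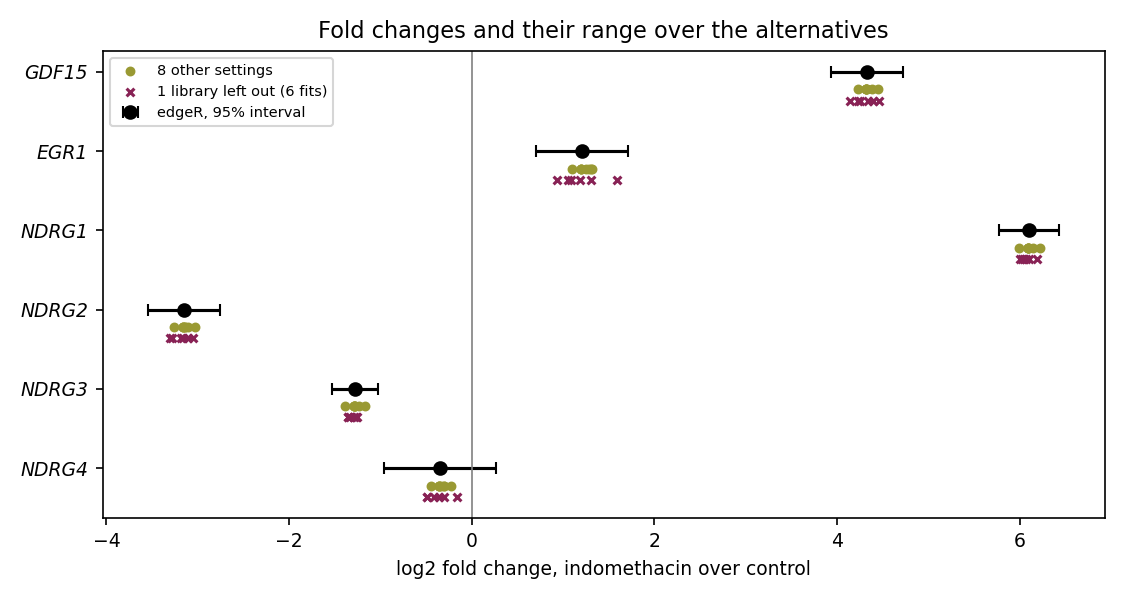
Log2 fold changes of the 6 genes, indomethacin over control, with the 95% interval of edgeR's quasi-likelihood test, and below each the values under 8 other settings and with each of the 6 libraries left out. EGR1 spreads from 0.94 to 1.59 when a library is left out, while the interval of NDRG4 spans 0.

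NDRG1 (ENSG00000104419) lies on the minus strand of chromosome 8 from 133237175 to 133302022. Its control counts were 83, 105 and 88, and its indomethacin counts 5169, 6609 and 4993. That is 4.06, 4.47 and 4.12 CPM in control and 245, 328 and 299 CPM with indomethacin, with both groups tight and far apart. The means were 4.22 ± 0.220 and 291 ± 42.0 CPM (SD, n = 3), a 69.0-fold rise (log2 fold change 6.10, SE 0.15, 95% interval 5.77 to 6.43; edgeR adjusted p = 1.4e-11). Its p-value was the 2nd smallest of the 17200 genes. Per length, with the deposited length of 12002 bases that merges many transcripts, it lay above 16.4% of the genes tested in control. With indomethacin it lay above 93.1% of them. By CPM without regard to length, it ranked 10768th highest of the 17200 genes in control and 309th with indomethacin.

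NDRG2 (ENSG00000165795, minus strand of chromosome 14, 21016763 to 21070872) is known as a gene of differentiated tissues that is often low in tumours. It stood at 16.7, 19.7 and 21.4 CPM in the control and at 2.47, 2.18 and 1.80 CPM in the indomethacin libraries. The groups were well apart, and the means of 19.3 ± 2.41 and 2.15 ± 0.335 CPM gave an 8.97-fold fall (edgeR adjusted p = 5.7e-09, with a log2 fold change of -3.15 and its SE of 0.18). Its exons share 236 bases with TPPP2 and 173 with a long non-coding RNA gene on the other strand and 73 with MIR6717. These 3 genes had 2, 0 and 0 counts over the 6 libraries.

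NDRG3 (ENSG00000101079, minus strand of chromosome 20, 36651766 to 36746090), whose protein is known to be stabilised when oxygen is short, stood at 32.0, 31.8 and 35.3 CPM in control and 14, 13.1 and 13.6 CPM in indomethacin libraries. The libraries of each group lay close together, and the means of 33.0 ± 2.0 and 13.6 ± 0.471 CPM differed 2.43-fold (edgeR adjusted p = 4.8e-07, with a log2 fold change of -1.28 and its SE of 0.12). NDRG4 (ENSG00000103034, plus strand of chromosome 16, 58462846 to 58513628), known from heart and brain, stood at 2.98, 1.96 and 1.92 CPM in control and 1.90, 1.69 and 1.80 CPM with indomethacin. Its indomethacin libraries lay just below the lowest control, with 30 to 61 counts in each library, and the difference did not pass (log2 fold change -0.35, SE 0.29, 95% interval -0.96 to 0.27; edgeR adjusted p = 0.31).

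NDRG1 passed NDRG2 and NDRG3 to become the highest of the NDRG genes by level per length, and the other 3 kept their order among themselves. Per kb of exon, the control libraries had NDRG3 first (10.1 ± 0.615 CPM per kb), then NDRG2 (2.55 ± 0.319), NDRG1 (0.351 ± 0.0184) and NDRG4 (0.237 ± 0.0627), and in none of the 3 libraries was the order different. With indomethacin NDRG1 came first at 24.2 ± 3.50 CPM per kb, then NDRG3 (4.17 ± 0.144), NDRG2 (0.285 ± 0.0444) and NDRG4 (0.186 ± 0.0109). The family's summed level rose from 13.3 ± 0.834 to 28.9 ± 3.32 CPM per kb. NDRG1 took 2.65% ± 0.233 of that sum in control and 83.7% ± 2.59 in indomethacin libraries, and NDRG3 took 76.3% ± 1.03 and 14.6% ± 2.25. The deposited length of NDRG1, 12002 bases, merges the exons of many transcripts. With the length of the principal transcript of each gene in GENCODE 29, an alternative chosen after seeing the data, NDRG1 took 5.61% and 93.3%, NDRG3 50.0% and 5.06%, and NDRG2 41.5% and 1.15%, against 19.2% and 1.0% for NDRG2 with the deposited lengths. The sum was then 22.3 ± 1.59 and 92 ± 12.1 CPM per kb, a 4.13-fold rise against 2.17-fold with the deposited lengths. The order of the 4 genes in each group's means did not depend on the length used.

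**Figure D3:**
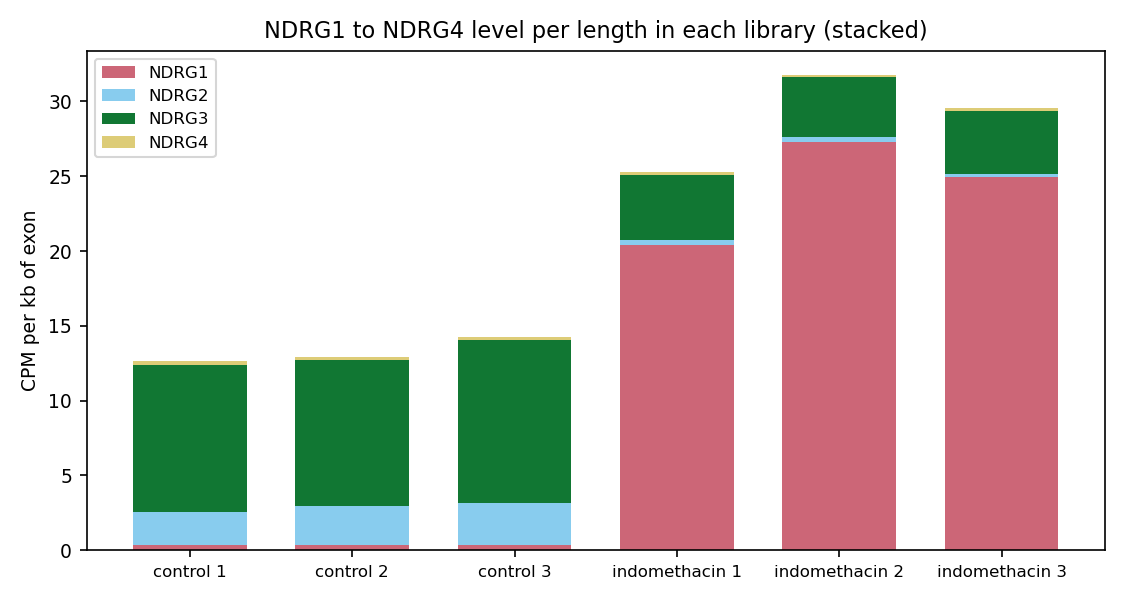
Level of NDRG1 to NDRG4 per kb of exon in each library, stacked, in CPM per kb. The control bars of 12.7 to 14.2 consist mostly of NDRG3 with the deposited exon lengths used here, a share that was 48.6% to 51.8% with principal transcript lengths, and the indomethacin bars of 25.3 to 31.8 consist mostly of NDRG1.

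Of the kinases that phosphorylate NDRG1, GSK3A alone among the 5 tested passed. SGK1 had 37.8 ± 15.3 and 46.7 ± 6.92 CPM (edgeR adjusted p = 0.22) and was called higher without control replicate 1, which held its highest control value, and with the replicate block. SGK2 was called higher with upper-quartile factors and without indomethacin replicate 1, and GSK3B lower without indomethacin replicate 1. GSK3A rose (log2 fold change 0.58) while GSK3B did not pass (-0.19, edgeR adjusted p = 0.17). Of the MYC genes, known as repressors of NDRG1, MYC rose from 64.1 ± 9.80 to 131 ± 21.6 CPM (log2 fold change 1.03; edgeR adjusted p = 2.2e-05). MYCN fell from 201 summed control counts to 3 summed indomethacin counts, and the scaled levels had a ratio of 59.4 (20.05 to 291, the 95% interval from counting). EPAS1, a hypoxia-inducible factor, rose from 35.9 ± 4.52 to 56.5 ± 4.69 CPM, and VHL, which marks these factors for degradation, from 40.6 ± 4.75 to 61.5 ± 4.97 CPM. Of the 12 genes of this list, all tested, 4 (33.3%) rose, 2 (16.7%) fell and 6 did not pass (median log2 fold change 0.37), and the share that rose was near the 30.6% of all genes tested. SGK1, SGK2, GSK3A and GSK3B are named for their role and after their values were seen.

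Of 14 genes known, like NDRG1, as induced by hypoxia, 12 were tested, and 6 (50.0%) rose, 1 (8.33%) fell and 5 did not pass (median log2 fold change 0.82). Of all genes tested 30.6% rose and 31.0% fell. The largest change was that of VEGFA, given above. The glucose transporter gene SLC2A1 rose from 414 ± 36.5 to 760 ± 41.1 CPM (log2 fold change 0.88) and the histone demethylase gene KDM3A from 41.6 ± 6.72 to 72.6 ± 5.08 CPM (0.81), while the collagen hydroxylase gene P4HA1 fell from 47.8 ± 2.26 to 27.1 ± 3.64 CPM (-0.82). CA9, commonly used as a hypoxia marker, had 1 count over the control and 3 over the indomethacin libraries, and EGLN3 had 45.2 ± 3.24 and 45.1 ± 2.60 CPM. Both are named after their values were seen. No member of this list moved as far as NDRG1.

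Genes reported to answer NSAIDs had the highest median of the lists. Of 16 genes, all tested, 11 rose and 4 fell, and 1 did not pass (median log2 fold change 2.11 against 0.04 for all genes tested). The list was drawn up with earlier results of these data known, and the share of 68.8% that rose stands against 30.6% of all genes tested. It takes no account of the direction reported for each gene, so its median and shares do not measure likeness to the reported responses. TNFRSF10B, a death receptor gene, rose from 97.3 ± 7.09 to 427 ± 58.9 CPM, a log2 fold change of 2.13 (SE 0.12), and BIRC5, which encodes the apoptosis inhibitor survivin, fell from 85.7 ± 6.59 to 7.60 ± 2.23 CPM (-3.51, SE 0.17). DDIT3, KLF4 and CEBPB, which rose, and THBS1, which fell (-3.05), are given above and belong to this list too. HPGD (-2.41) and CCND1 (-2.24) also fell, and both are named after their values were seen. ELF3 was the gene that did not pass (log2 fold change 0.20, edgeR adjusted p = 0.12), and it is named after its values were seen.

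**Figure D4:**
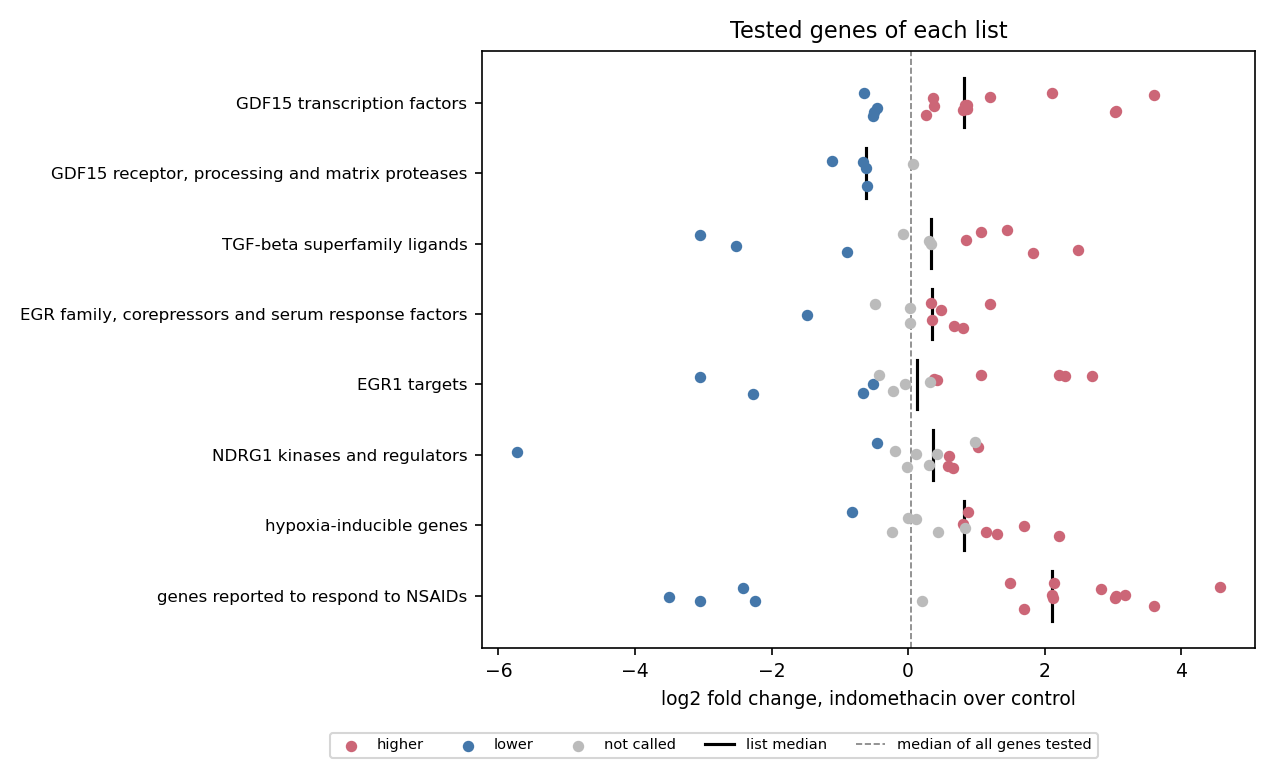
Log2 fold changes of the tested genes of each list, coloured by whether edgeR called them higher, lower or neither; black bars are list medians and the dashed line is the median of all genes tested, 0.04. The genes reported to respond to NSAIDs have the highest list median, 2.11, and the GDF15 receptor, processing and matrix protease genes the lowest, -0.61.

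The genes whose pattern was most like each member's were taken from the whole table by the distance between log2 CPM values over the 6 libraries, each gene centred on its mean. The distance mostly measures a like difference between the groups. For GDF15 they were ARRDC3 (distance 0.46), an arrestin-like adaptor gene that went from 10.8 ± 2.17 to 228 ± 13.3 CPM, then the calpain gene CAPN5 (0.60) and the chloride channel gene BEST1 (0.61). For EGR1 they included the kinase phosphatase gene DUSP10 (0.52) and the transcriptional coregulator gene CITED2 (0.56), with log2 fold changes of 1.25 and 1.42. NDRG1 was closest to SPRR2D (0.33), of the cornified envelope, to the long non-coding RNA gene LUCAT1 (0.38), which went from 0.796 ± 0.123 to 65.1 ± 9.33 CPM, and to TDRD9 (0.68). SPRR2D had 5 and 638 counts over the groups, and TDRD9 had 2 and 607, a ratio of 342 (95% counting interval 94.3 to 2832).

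NDRG2 was closest to the interferon-induced gene IFI6 (distance 0.25), which went from 44.4 ± 1.44 to 5.22 ± 0.955 CPM, to BRI3BP (0.31) and to the histone gene H3C15 (0.33), a near-identical copy of other histone genes whose value is therefore uncertain. NDRG3 had the closest partners, at distances of 0.06 to 0.07: GPRIN2, the splicing factor gene SF3B3 and the nuclear import gene IPO9, with log2 fold changes of -1.30, -1.27 and -1.29. For NDRG4 they were ZNF814 (0.14), MYLIP (0.21) and CISD1 (0.21), of which CISD1 was called (log2 fold change -0.40, edgeR adjusted p = 0.032), though not under every alternative.

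**Figure D5:**
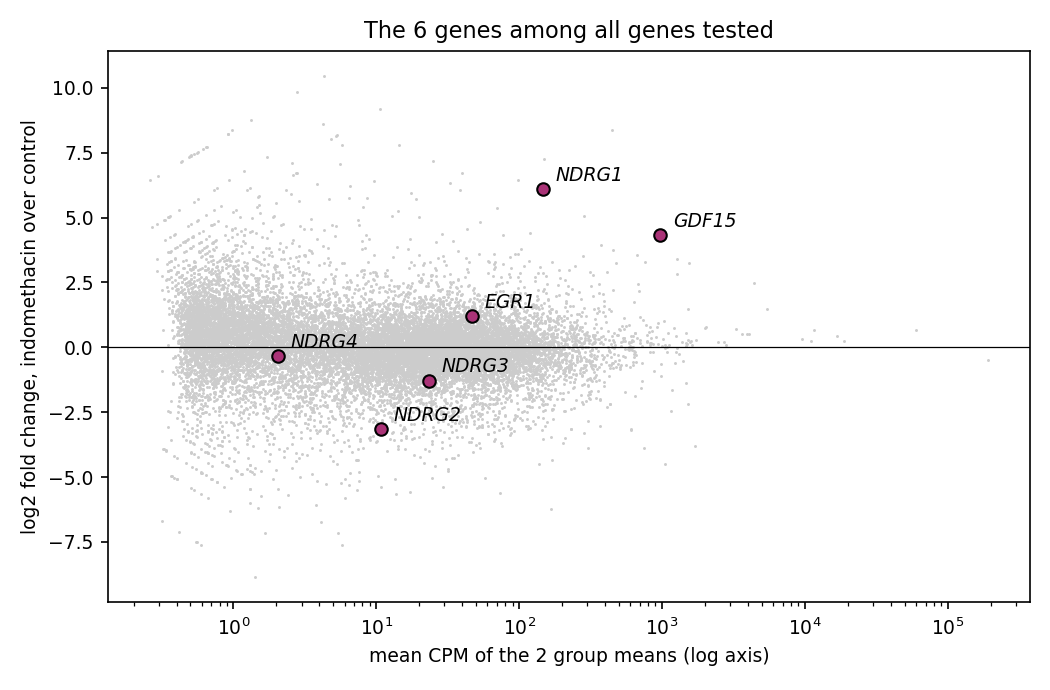
Log2 fold change against mean level for the 17200 genes tested (grey), with the 6 genes named; the x axis is logarithmic, in CPM. NDRG1 and GDF15 lie at 6.10 and 4.33, above most genes of like level, NDRG2 lies at the lower edge of the cloud at -3.15, and EGR1, NDRG3 and NDRG4 lie within it at 1.21, -1.28 and -0.35.

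The nearest tested protein-coding genes lying wholly outside each member rose on both sides of GDF15 and on 1 side of NDRG1. Protein-coding genes that overlap a member were passed over, such as ARHGEF40 at NDRG2, with 1814 counts over the 6 libraries. Of all genes tested, 30.6% rose and 31.0% fell. LRRC25, on the minus strand 1961 bases after GDF15, had 3 summed control counts and 80 summed indomethacin counts, which is a ratio of 30.1 (9.92 to 149, the 95% interval from counting). PGPEP1, 4781 bases before GDF15, went from 0.990 ± 0.207 to 4.42 ± 2.20 CPM (log2 fold change 2.15, edgeR adjusted p = 0.00018). CCN4 lies 5485 bases beyond the 3′ end of NDRG1 on the other strand. Its counts summed to 0 in control and to 119 with indomethacin, so it was at least 44.7-fold higher against a floor of 3 counts over the group. Whether the counts were made by strand is not given in the sources used here. Reads running on from GDF15 or NDRG1 therefore cannot be told apart from the genes' own in LRRC25 and CCN4. Beside EGR1, KDM3B (-0.73) and ETF1 (-0.39) fell while EGR1 rose. METTL17 (-0.85) and ZNF219 (-0.95) fell beside NDRG2, DSN1 (-1.59) fell and SLA2 (1.06) rose beside NDRG3, and GINS3 (-1.25) fell beside NDRG4. ZFAT, on the other side of NDRG1 (-0.12, edgeR adjusted p = 0.52), did not pass, and it lies 1175766 bases away from NDRG1. SETD6, 1851 bases away on the other side of NDRG4 (-0.01, edgeR adjusted p = 0.95), did not pass either. The values in brackets are log2 fold changes, and the genes were picked by position with the members' values known.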

How the data were processed

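Total RNA of AGS cells was sequenced in 6 libraries after depletion of ribosomal RNA, with a stranded kit, per the labels' protocols. HISAT2 2.1.0, featureCounts and build hg38 are named among the tools, per the submitters' processing notes, and the strand setting, the handling of reads with several places and the annotation release are not given in the sources used here. Each table holds the raw counts of 1 library as the authors deposited them, with exon coordinates and length per gene, per the file headers. Of the 60607 lines per file, 3 that belong to 1 broken gene entry were left out. Gene symbols were found for 60462 identifiers, and promoter sequences came from RefSeq on GRCh38.p14, which gave windows for 4 of the 6 members (GDF15, EGR1, NDRG2 and NDRG4).

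Genes were kept by filterByExpr, scaled by TMM and tested with edgeR 4.0.16 (R 4.3.3; glmQLFit and glmQLFTest, group as the only term), with Benjamini-Hochberg adjustment over 17200 genes. Standard errors and intervals are those the test statistic implies. The members and lists were chosen with earlier results of these data known. Named genes were the 6 members, from each list at most 4 tested genes, taken in order of adjusted p, and beside each member the 3 genes with a mean of at least 5 CPM nearest to it in centred log2 CPM (prior count 2). Clone names and pseudogenes were left out of the last. One gene that this rule names is not reported here. No replicate pair matched within counting error (the chi-square over its degrees of freedom was 6.99 to 21.9). Same-numbered control and indomethacin libraries deviated from their group means with correlations of 0.02, 0.01 and 0.13. Differently numbered ones had correlations from -0.14 to 0.13, so the numbers were not taken to pair the libraries. Alternatives were limma-voom (limma 3.58.1), DESeq2 1.42.0, other scalings, other filters, a replicate block and each library left out. The scripts were tested on simulated data.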

Additional observations from a re-analysis of the deposited data

How the results depend on the processing

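GDF15, EGR1, NDRG1, NDRG2 and NDRG3 kept their direction and stayed past the threshold in all 14 alternatives, and NDRG4 passed in none. Over these the log2 fold change was 4.14 to 4.46 for GDF15, 0.94 to 1.59 for EGR1, 6.0 to 6.22 for NDRG1, -3.30 to -3.03 for NDRG2, -1.39 to -1.16 for NDRG3 and -0.49 to -0.17 for NDRG4. The largest adjusted p of EGR1 was 0.0059, with DESeq2, and that of NDRG4 ranged from 0.21 to 0.67. Upper-quartile factors raised the median log2 fold change of all genes tested from 0.04 to 0.16 and gave 6124 genes higher and 4686 lower, against 5264 and 5327. The list of EGR family, corepressor and serum response genes had 2 members lower, with SRF added, under DESeq2, RLE factors, no filter on low counts and the replicate block, against 1 otherwise. With a library left out it had 1 to 2 lower and 3 to 5 higher, against 6. The hypoxia list had 2 members lower with no filter, BNIP3L added, and 1 to 2 with a library left out. With the replicate number as a block the log2 fold change of EGR1 was 1.28 and that of NDRG1 6.10, and the count of genes was 5249 higher and 5352 lower; the block changed the call of none of the 6 members. The NDRG shares and their sum moved with the gene length used, as given above. At 30 to 61 counts per library, NDRG4 is the member whose precision depth limits most.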
